A study of Mus musculus with 9 samples.

Results

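The genes of the constitutive proteasome were followed in bulk RNA sequencing of the mouse atrioventricular (AV) node, the relay of the electrical impulse between atria and ventricles. Members were all listed symbols that begin with Psma, Psmb, Psmc or Psmd and a number, without the 3 immunoproteasome genes Psmb8, Psmb9 and Psmb10, at 1 CPM (a read count divided by a total for the library) or more in at least 3 of the 9 libraries. Of 34198 listed symbols, 43 matched the pattern, 40 remained without the immunoproteasome genes, and 35 passed the level. These were 14 genes of the core particle, 20 genes named for the regulatory particle, and Psmc3ip, a meiotic recombination factor that matches the pattern by its name but is not a proteasome subunit. The 5 symbols left out as low were Psma8, the testis form of an alpha subunit, which reached 1.11 CPM in 1 library, the thymus subunit Psmb11 at 0 throughout, and 3 pseudogene symbols at 0.03 CPM or less. Psmc3ip lay just inside the level, at 1.05 to 3.23 CPM.

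The 9 libraries came from microdissected AV nodes of C57BL/6J mice, 3 from control mice (libraries 1 to 3), 3 from Cx3cr1 Cx43-/- mice (libraries 4 to 6) and 3 from macrophage-depleted Cd11bDTR mice (libraries 7 to 9). Cx43 is the gap junction protein connexin 43, encoded by Gja1, and Cx3cr1 is a chemokine receptor gene active in macrophages. In Cd11bDTR mice the promoter of the myeloid integrin Cd11b drives the receptor for diphtheria toxin, so that toxin removes cells using that promoter, which is active in other myeloid cells as well as in macrophages. The design text calls the 3 libraries of each group biological replicates. Toxin dose, timing, age, the Cre allele and any pooling of nodes are not given in the sources used here.

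The proteasome degrades proteins that carry ubiquitin. Its core particle is a barrel of alpha rings, which form the gate, and beta rings, which hold the proteolytic sites. The regulatory particle caps the barrel: ATPase subunits (Psmc) unfold the substrate and non-ATPase subunits (Psmd) bind ubiquitin, remove it and hold the cap together. In heart muscle the proteasome turns over contractile proteins, and the transcription factor Nfe2l1 is known to raise the transcription of its subunits together when proteasome activity is short, through antioxidant response elements near their start sites.

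Promoters of 29 of the 35 members had a RefSeq window (GRCm38.p6), in which the 250 bases before the annotated start were searched. The letters TGACNNNGC, the core of the antioxidant response element, were searched on both strands and lay in 5 of the 29 (17.2%), namely Psmb5, Psmb6, Psmc6, Psmd9 and Psmd12. They lay in 14.2% of 9168 tested genes with a window, and in 11.5% of all 27025 genes with one. CCAAT, the core of the NF-Y site was searched the same way, overlaps with the first motif being allowed, and lay in 12 of the 29 (41.4%), against 40.3% of tested genes and 37.5% of all genes. The windows of 2 catalytic subunits with TGACNNNGC, Psmb6 (chr11:70525107-70525356, plus strand) and Psmb5 (chr14:54617996-54618245, minus strand), are shown with the match in capitals. They are followed by those of Psmd4 (chr3:95042615-95042864, minus strand) and Psmd1 (chr1:86064369-86064618, plus strand), the members with the highest and the lowest change after macrophage depletion, which hold no TGACNNNGC. All run 5′ to 3′ on the strand of the gene and end at the base before the start.
Psmb6: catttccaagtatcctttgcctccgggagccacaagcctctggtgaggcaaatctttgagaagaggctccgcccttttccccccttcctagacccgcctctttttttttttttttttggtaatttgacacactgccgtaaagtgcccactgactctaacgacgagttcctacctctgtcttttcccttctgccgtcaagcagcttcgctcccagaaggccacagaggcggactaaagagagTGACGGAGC
Psmb5: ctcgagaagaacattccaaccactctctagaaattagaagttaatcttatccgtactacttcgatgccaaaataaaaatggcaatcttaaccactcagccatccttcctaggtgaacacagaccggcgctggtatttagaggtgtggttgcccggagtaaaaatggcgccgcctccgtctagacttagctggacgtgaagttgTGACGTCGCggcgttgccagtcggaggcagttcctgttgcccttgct
Psmd4: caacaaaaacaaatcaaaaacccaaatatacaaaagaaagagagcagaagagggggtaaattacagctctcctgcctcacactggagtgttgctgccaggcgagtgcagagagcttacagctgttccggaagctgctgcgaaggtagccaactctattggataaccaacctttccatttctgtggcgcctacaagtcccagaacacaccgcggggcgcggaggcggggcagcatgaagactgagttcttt
Psmd1: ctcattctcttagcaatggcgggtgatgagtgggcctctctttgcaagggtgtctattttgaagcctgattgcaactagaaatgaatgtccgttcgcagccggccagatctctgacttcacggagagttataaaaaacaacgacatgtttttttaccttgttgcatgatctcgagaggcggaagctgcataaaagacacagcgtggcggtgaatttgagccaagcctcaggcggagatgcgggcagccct
A match is a run of letters and no measured binding site. Windows of Psmb1, Psmb2, Psmb7, Psmc3, Psmd3 and Psmd7 were not used here.

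In the control nodes all 34 proteasome genes were well above the level of detection. A gene at 1 CPM rested on about 51.9 to 64.9 reads in these libraries. Per kilobase of transcript, the median over the 34 genes was 35.6 CPM/kb in control. Levels of single subunits ranged from 2.98 CPM/kb for the assembly chaperone Psmd5 to 105 CPM/kb for the beta subunit Psmb4. Psmb6, with the caspase-like site, stood at 101 CPM/kb, and Psmb7, with the trypsin-like site, at 75.1 CPM/kb. Psmb5, with the chymotrypsin-like site, stood at 25.3 CPM/kb and the alpha subunit Psma3 at 4.90 CPM/kb. Subunits that occur once per ring thus differed widely in measured level. Part of the reads of some of them can be lost where their sequence also occurs in another gene's transcripts. Sharing was counted on either strand, and genes with overlapping exons were not set aside. It held for 57.1% of the 50-base stretches of Psmb5, 55.8% of those of Psmb3 and 55.4% of those of Psma5. The share was 31.5% for Psma4, 28.1% for Psmb7, 26.4% for Psmd2 and 22% for Psma3. The levels of these 7 genes are therefore uncertain. In 15 of the 34 genes the share was 0. Exons of another gene in GENCODE M21 overlap those of Psma4, Psma5, Psmb5, Psmb7, Psmc3, Psmd1, Psmd3 and Psmd13, and how reads there were counted was not given in the sources used here. Across the 34 genes, level per kilobase and shared percentage had a Spearman rho of -0.37, given as a description. Of the 6 genes under 20 CPM/kb in control, 2 had over 20% of their stretches shared.

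Library 9 stood apart from the other libraries in most proteasome genes. Set against the mean of the control libraries on the log2(CPM + 0.5) scale, the median of the 34 genes was -0.10, 0.07 and 0.02 in control libraries 1, 2 and 3, and 0.07, -0.08 and -0.05 in Cx3cr1 Cx43-/- libraries 4, 5 and 6. In the macrophage-depleted libraries it was 0.27 in library 7, 0.09 in library 8 and -0.50 in library 9. Of the 34 genes, 30 were above the control mean in library 7 and 24 in library 8, but 1 in library 9. The median of all 12925 tested genes was below the control mean in each depleted library, at -0.21, -0.43 and -0.77. The listed genes held 44.0%, 37.7% and 28.3% of the CPM denominator in libraries 7, 8 and 9, against 42.8% to 48.7% in the other 6. The rest of the denominator is not in the listed genes, so a gene can change in deposited CPM through that share alone.

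**Figure D1:**
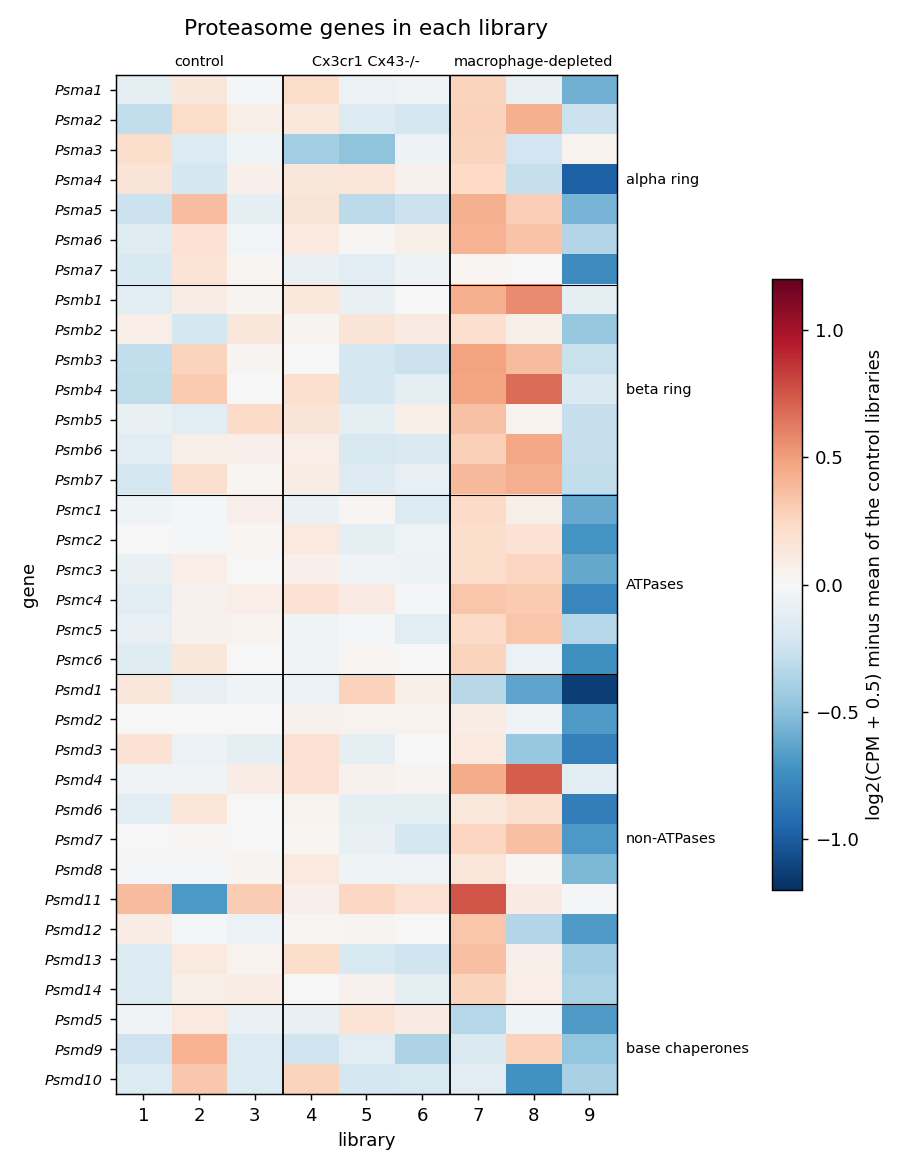
Each row is a proteasome gene, each column a library, and colour gives log2(CPM + 0.5) minus the mean of the 3 control libraries; horizontal lines separate the roles. Library 9 is blue in almost all rows, while libraries 7 and 8 are mostly red in the beta ring and mixed among the non-ATPases, where Psmd1 is blue in all 3 depleted libraries.

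The samples themselves set limits on these comparisons. Gja1 lay at 179 to 249.99 CPM in Cx3cr1 Cx43-/- nodes and at 163 to 246 CPM in control nodes, at a log2 change of 0.09, so the targeted gene did not mark the knockout in whole tissue. Macrophage markers summed to 59.0 to 69.5 CPM in depleted nodes against 241 to 387 CPM in control nodes. Of 10 tested macrophage markers 8 fell, and Cd163 was at 0 in library 8 and at most 0.34 CPM in the other depleted libraries. Itgam, the gene of Cd11b, was at 5.31 ± 3.65 CPM in control and 6.47 ± 3.77 CPM in depleted nodes (SD). Its log2 change was 0.31 (limma adjusted p = 0.591). All 6 AV node markers also fell, from a sum of 261 to 306 CPM to 54.7 to 83.7 CPM. Monocyte and neutrophil markers summed to 30.8 to 50.4 CPM in depleted nodes and 3.82 to 8.05 CPM in control nodes, and 3 of 4 tested rose. Of 4 endothelial markers 3 fell, and of 6 cardiomyocyte markers 1, Myh6, fell, a smaller share than over all genes. Here fell and rose mean a limma call in deposited CPM by the rule given below. By it 33% of all tested genes were lower and 3.23% higher. None of 5 fibroblast or 4 tested adipocyte markers was called, the adipocyte sum being 229 CPM in library 8 and 22.3 to 57.5 CPM in the controls. The part of these shifts in the proteasome results was not tested, and in bulk tissue fewer cells of a type and less RNA per cell cannot be told apart.

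After macrophage depletion, 1 of the 35 genes changed in deposited CPM, the scaffold subunit Psmd1, which fell. No member rose. The members' median log2 change was -0.05 (range -0.70 to 0.35), whereas the median over all tested genes was -0.49. The call required a limma p, adjusted by Benjamini-Hochberg over 12925 genes, under 0.05. By that rule 36.2% of tested genes were called, 3.23% as higher and 33% as lower, and 1 of 35 members is a smaller share. Libraries of the 2 groups did not overlap for 1 of the 34 proteasome genes, again Psmd1, while 3.61% of tested genes lay wholly above control and 38% wholly below.

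Because the median gene moved, the changes were also computed on scales that centre the libraries differently. With each library rescaled to a common total of listed genes, the median of all genes was -0.18 and that of the members 0.29, with 10 members higher and 1 lower. All tested genes were then called as higher in 8.79% and lower in 19.6%. With median-of-ratios scaling, which sets the typical gene level between libraries, the median of all genes was -0.03 and that of the members 0.45, with 18 higher and 0 lower against 13.3% and 12.8% of all genes. With quantile normalization 11 members were higher and 1 lower, against 12.2% and 14%. Relative to the median gene, the members' median was 0.44 in deposited CPM, 0.46 on the common total, 0.47 with median-of-ratios scaling and 0.33 with quantile normalization. The members' median thus lay above that of all genes on these 4 scales. The common total and median-of-ratios scaling multiply all genes of a library by the same factor. The difference from the median gene could therefore hardly change from deposited CPM, and these scales are no separate evidence for it. The call of single subunits as higher depended on the scale.

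**Figure D2:**
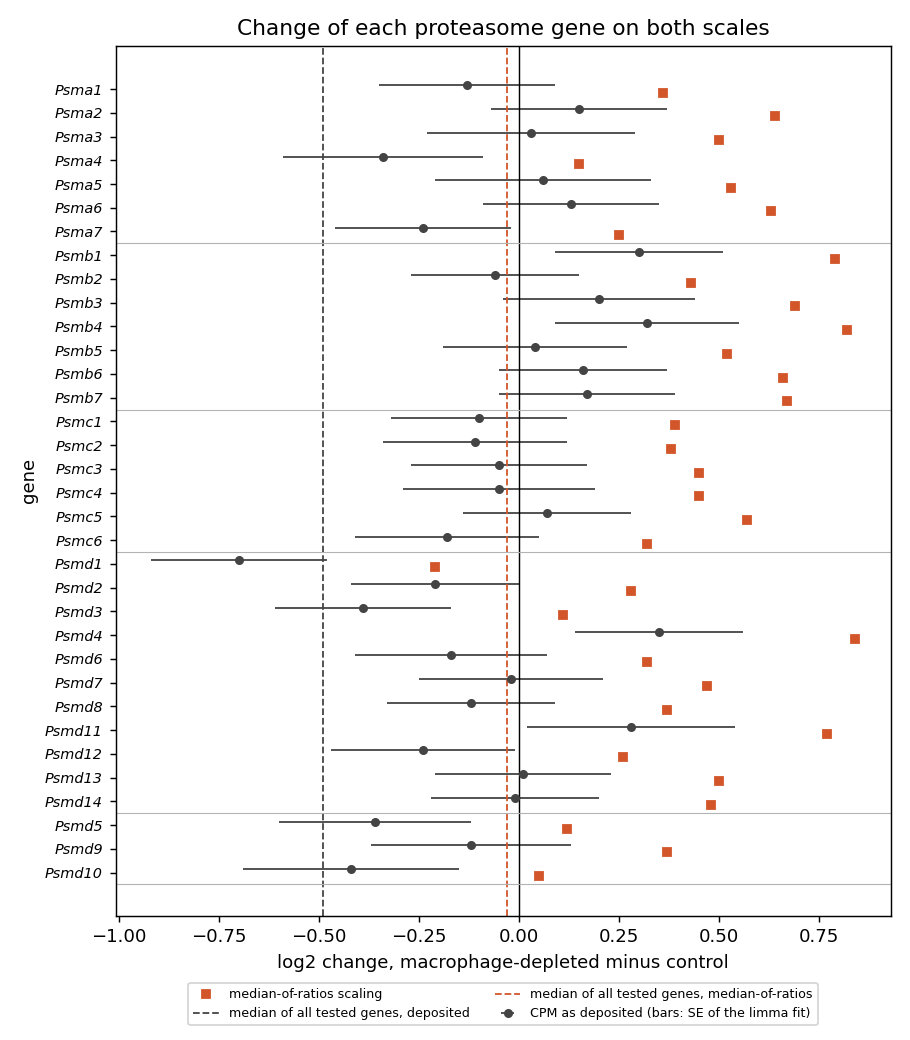
For each proteasome gene, the log2 change between macrophage-depleted and control nodes is shown in deposited CPM (grey points, bars are standard errors of the limma fit) and with median-of-ratios scaling (orange squares); dashed lines mark the medians of all tested genes, -0.49 and -0.03. All genes except Psmd1 lie to the right of the dashed line of their own scale, and Psmd1 lies to the left of it on both. The scaling moves each gene and the median line by nearly the same amount, so their order is no second observation.

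Within the core particle, the alpha ring had a median log2 change of 0.03 over 7 genes, with 0 called in deposited CPM. With median-of-ratios scaling 2 of 7, Psma2 and Psma6, were higher. Psma4 measured 33.6, 25.8 and 31.3 CPM in control libraries 1 to 3, 32.9, 33.2 and 31.1 in Cx3cr1 Cx43-/- libraries 4 to 6, and 35.5, 24.7 and 15 in depleted libraries 7 to 9. Its depleted libraries spanned both sides of the control range, and the log2 change was -0.34 (SE 0.25, limma adjusted p = 0.291). Psma7 measured 54.8, 69.9 and 63.1 CPM in control, 58.7, 56.7 and 59.8 in Cx3cr1 Cx43-/- and 63.4, 62.5 and 36.7 in depleted nodes. Libraries 7 and 8 lay inside the control range and library 9 below it, and the change was -0.24 on the log2 scale (SE 0.22, limma adjusted p = 0.394). The level of Psma3 is uncertain because of its shared stretches. It measured 10.5, 8.03 and 8.69 CPM in control, 6.69, 6.32 and 8.63 in Cx3cr1 Cx43-/- and 11.0, 7.65 and 9.30 in depleted nodes. Its groups overlapped, and its log2 change was 0.03 (SE 0.26), with the largest limma adjusted p of the alpha genes, 0.940.

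The beta ring had the highest median of the 5 role groups, 0.17 over 7 genes. None of the 7 was called in deposited CPM. On the common total 5 of 7 were higher, and with median-of-ratios scaling 7 of 7, with log2 changes from 0.43 for Psmb2 to 0.82 for Psmb4. Psmb4, a structural beta subunit, measured 98.7, 152 and 122 CPM in control, 140, 106 and 113 in Cx3cr1 Cx43-/- and 170, 195 and 108 in depleted nodes. Libraries 7 and 8 lay above every other library and library 9 inside the control range. Its log2 change was 0.32 (SE 0.23, limma adjusted p = 0.273) in deposited CPM; under median-of-ratios scaling it was 0.82 (adjusted p = 0.00796). Psmb1, another structural beta subunit, measured 67.9, 79.1 and 76.0 CPM in control, 81.0, 69.9 and 74.4 in Cx3cr1 Cx43-/- and 101, 110 and 68.8 in depleted nodes. Here too libraries 7 and 8 were the highest and library 9 lay inside the control range. The log2 change was 0.30 (SE 0.21, limma adjusted p = 0.259) in deposited CPM and 0.79 (adjusted p = 0.00120) with median-of-ratios scaling.

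The 3 catalytic subunits had log2 changes of 0.04 to 0.17 in deposited CPM, none of them called, and all were higher with median-of-ratios scaling. Psmb6 measured 73.4, 85.0 and 84.3 CPM in control, 85.2, 70.8 and 71.7 in Cx3cr1 Cx43-/- and 98.5, 112 and 66.7 in depleted nodes. Its log2 change was 0.16 (SE 0.21, limma adjusted p = 0.566), and 0.66 (adjusted p = 0.00632) with median-of-ratios scaling. Psmb7 measured 74.6, 99.0 and 88.0 CPM in control, 92.2, 77.9 and 80.6 in Cx3cr1 Cx43-/- and 113, 117 and 70.3 in depleted nodes. Both genes were highest in libraries 7 and 8 and lowest in library 9. Psmb7 changed by 0.17 (SE 0.22, limma adjusted p = 0.542) on the log2 scale in deposited CPM and by 0.67 (adjusted p = 0.00791) with median-of-ratios scaling. Psmb5 measured 17.9, 17.4 and 22.4 CPM in control, 21.4, 17.7 and 20.1 in Cx3cr1 Cx43-/- and 24.5, 19.7 and 15.7 in depleted nodes. Its 3 groups overlapped, and its log2 change was 0.04 (SE 0.23, limma adjusted p = 0.904), or 0.52 (adjusted p = 0.0263) with median-of-ratios scaling. Psmb5 and Psmb6 carry the TGACNNNGC letters in the windows shown above, and no window of Psmb7 was used. A link between these letters and the changes was not tested.

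The 6 ATPases of the regulatory particle had a median log2 change of -0.07 and 0 calls in deposited CPM. With median-of-ratios scaling 3 of 6, Psmc1, Psmc3 and Psmc5, were higher. Psmc6 measured 62.7, 76.3 and 69.3 CPM in control, 67.2, 70.4 and 69.6 in Cx3cr1 Cx43-/- and 83.5, 66.1 and 41.5 in depleted nodes. The depleted libraries spread over both sides of the controls, and the change was -0.18 on the log2 scale (SE 0.23, limma adjusted p = 0.552). Psmc2 measured 66.8, 66.1 and 67.8 CPM in control, 72.5, 62.1 and 64.6 in Cx3cr1 Cx43-/- and 77.3, 75.7 and 40.4 in depleted nodes. The control libraries of Psmc2 lay close together, and 2 depleted libraries lay above them and 1 far below (log2 change -0.11, SE 0.23, limma adjusted p = 0.714). Psmc4 measured 49.4, 56.5 and 57.6 CPM in control, 61.2, 58.4 and 53.9 in Cx3cr1 Cx43-/- and 68.6, 67.5 and 31.4 in depleted nodes. It showed the same split between libraries 7 and 8 and library 9, at -0.05 on the log2 scale (SE 0.24, limma adjusted p = 0.892).

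The 11 non-ATPases held both ends of the range. Psmd1, the large scaffold of the base of the cap, measured 70.6, 60.04 and 62.3 CPM in control, 61.3, 77.9 and 67.4 in Cx3cr1 Cx43-/- and 50.9, 41.2 and 29.1 in depleted nodes. All 3 depleted libraries were below all 6 others. The log2 change was -0.70 (SE 0.22, limma adjusted p = 0.0159), from 64.3 ± 5.58 to 40.4 ± 10.9 CPM (SD, n = 3 each). It was -0.37 (adjusted p = 0.0295) on the common total and -0.21 (adjusted p = 0.204) with median-of-ratios scaling, so the call was lost on that scale. Leaving out control library 1 also ended the call (log2 change -0.63, adjusted p = 0.0747, with 20.8% of tested genes then called), as did leaving out library 9 on the common total (-0.32, adjusted p = 0.0662).

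Psmd3, a lid subunit, measured 82.2, 69.1 and 67.5 CPM in control, 82.7, 66.9 and 72.7 in Cx3cr1 Cx43-/- and 78.6, 52.9 and 41.0 in depleted nodes. Library 7 lay within the control range and libraries 8 and 9 below it, and its change was -0.39 on the log2 scale (SE 0.22, limma adjusted p = 0.175). Psmd13, also of the lid, measured 56.1, 68.2 and 64.8 CPM in control, 72.9, 55.5 and 53.2 in Cx3cr1 Cx43-/- and 81.0, 65.6 and 47.3 in depleted nodes. The groups of Psmd13 overlapped in deposited CPM, and its log2 change was 0.01 (SE 0.22, limma adjusted p = 0.981) there and 0.50 (adjusted p = 0.0330) with median-of-ratios scaling. Psmd4, a ubiquitin receptor of the cap, was added after its values were seen because it stood at the other end from Psmd1. It measured 61.0, 61.1 and 66.7 CPM in control, 70.9, 65.2 and 64.5 in Cx3cr1 Cx43-/- and 86.0, 104 and 57.4 in depleted nodes. Libraries 7 and 8 exceeded all others and library 9 was the lowest of all. Its log2 change was 0.35 (SE 0.21, limma adjusted p = 0.201) in deposited CPM and 0.84 (adjusted p = 0.000760) with median-of-ratios scaling.

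The assembly chaperones of the base, which bind ATPases before they join the particle, had the lowest median of the role groups. Their median log2 change was -0.36 over 3 genes, 0 were called on any of the 4 scales, and the median was 0.12 with median-of-ratios scaling. Psmd10 measured 8.67, 12.4 and 8.67 CPM in control, 11.9, 8.36 and 8.48 in Cx3cr1 Cx43-/- and 8.87, 5.70 and 7.33 in depleted nodes (log2 change -0.42, SE 0.27, limma adjusted p = 0.228). Psmd5 measured 12.7, 14.2 and 12.4 CPM in control, 12.3, 14.7 and 14.0 in Cx3cr1 Cx43-/- and 10.2, 12.6 and 7.99 in depleted nodes (log2 change -0.36, SE 0.24, limma adjusted p = 0.252). The depleted libraries of both genes lay mostly below control, with 1 library of each inside the control range. Psmd9 measured 15.6, 24.8 and 16.5 CPM in control, 15.7, 17.0 and 14.2 in Cx3cr1 Cx43-/- and 16.4, 22.6 and 13.3 in depleted nodes, and its groups overlapped (log2 change -0.12, SE 0.25, limma adjusted p = 0.726). Psmc3ip changed by -0.23 (SE 0.38, limma adjusted p = 0.643) on the log2 scale.

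Single depleted libraries moved these counts. Without library 9, 3 members were higher and 1 lower in deposited CPM, against 5.2% and 26% of the genes then tested. The 3 were Psmb1 (log2 change 0.50, limma adjusted p = 0.0155), Psmb4 (0.57, adjusted p = 0.0312) and Psmd4 (0.59, adjusted p = 0.00754), and Psmd1 stayed lower at -0.48 (adjusted p = 0.0346). Without library 9, 12 members were higher and 0 lower on the common total (8.88% and 21.3% of tested genes), and under median-of-ratios scaling 23 were higher and 0 lower (14.1% and 14.3%), both settings chosen after seeing the data. Without library 7 instead, in deposited CPM, 4 members were lower and 0 higher (45.9% and 2.71% of tested genes): Psmd1 (-0.88, limma adjusted p = 0.00208), Psma4 (-0.63, adjusted p = 0.0288), Psmd3 (-0.64, adjusted p = 0.0111) and the lid subunit Psmd12 (-0.52, adjusted p = 0.0239).

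Ratios of CPM between members within a library do not depend on a factor applied to the whole library, as on the common total or in median-of-ratios scaling; quantile normalization can change them. They were chosen after the values were seen and carry no test. An exact permutation test of 3 libraries against 3 cannot give a p below 0.1. The summed CPM of the 7 beta genes over that of the 7 alpha genes was 1.37, 1.42 and 1.45 in control libraries 1 to 3, 1.43, 1.36 and 1.38 in Cx3cr1 Cx43-/- libraries 4 to 6, and 1.54, 1.79 and 1.69 in depleted libraries 7 to 9. All 3 depleted libraries, library 9 included, were above the 6 others, with means of 1.67 ± 0.129 in depleted and 1.41 ± 0.0426 in control nodes (SD, n = 3 each). Without Psmb4 the ratio was 0.984 to 1.07 in control, 1.01 to 1.02 in Cx3cr1 Cx43-/- and 1.09 to 1.23 in depleted nodes. The depleted libraries again did not overlap the rest. For description, Psmd4 over Psmd1 was 0.863, 1.02 and 1.07 in control, 1.16, 0.838 and 0.957 in Cx3cr1 Cx43-/- and 1.69, 2.54 and 1.97 in depleted nodes. Psmd4 and Psmd1 are the members at the ends of the range in this comparison, so a separation of the groups by their ratio follows from the choice. The means were 2.07 ± 0.431 in depleted and 0.984 ± 0.108 in control nodes.

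The whole core over the whole cap moved less. Summed CPM of the 14 core genes over that of the 17 ATPase and non-ATPase genes was 0.629, 0.762 and 0.698 in control, 0.715, 0.643 and 0.684 in Cx3cr1 Cx43-/- and 0.752, 0.825 and 0.830 in depleted nodes. Library 7 lay below control library 2, so these groups overlapped. Core genes summed to 770.5 ± 81.5 CPM in control, 755 ± 61.5 in Cx3cr1 Cx43-/- and 851 ± 214 in depleted nodes, and regulatory subunits to 1106 ± 16.0, 1108 ± 42.5 and 1068 ± 300.2 CPM. The 31 subunits together took 0.413% ± 0.0468 of the CPM of listed genes in control, 0.395% ± 0.0237 in Cx3cr1 Cx43-/- and 0.519% ± 0.0523 in depleted nodes. As a share of listed genes, all 3 depleted libraries (0.514%, 0.574% and 0.470%) were above the 6 others (0.364% to 0.457%).

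**Figure D3:**
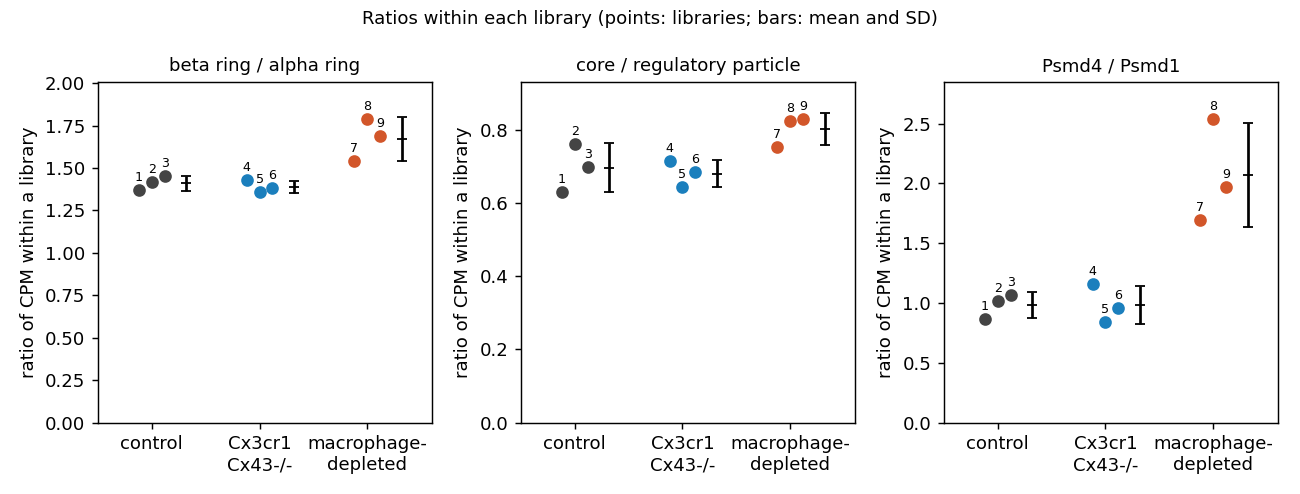
Points are libraries with their numbers, and bars give the mean and SD of 3 libraries for 3 ratios of CPM formed inside each library. Depleted libraries lie above all others for beta over alpha ring (1.54 to 1.79) and Psmd4 over Psmd1 (1.69 to 2.54), and overlap control for core over regulatory particle.

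Transcript length moved with the change, in the members and in the genome alike. Across the 34 genes the Spearman rho between median transcript length (GENCODE M21) and log2 change in deposited CPM was -0.37, and across 11386 tested genes it was -0.18; both are descriptions over genes, which share the 9 libraries. Beta genes had a median length of 859 bases, alpha genes 1165, ATPases 1614 and non-ATPases 1581. Psmd1 transcripts, at 3112 bases, are among the longest of the members, and those of Psmd4 measure 1332 bases. Against tested genes of their own length, 5 of 5 members up to 1000 bases exceeded the median of their class (-0.14), 10 of 12 that of the class up to 1500 bases (-0.33), 9 of 9 that up to 2000 bases (-0.42) and 6 of 6 that up to 3000 bases (-0.52). In the longest class, up to 5000 bases, 1 of 2 exceeded the median of -0.57. The part of length in the ratios of beta to alpha genes and of Psmd4 to Psmd1 was not tested.

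**Figure D4:**
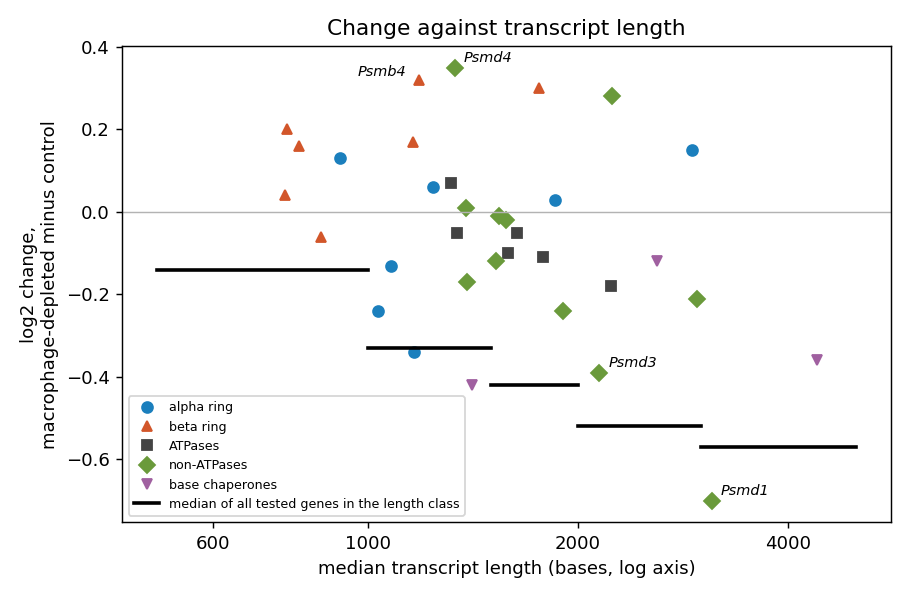
Points are the 34 proteasome genes by median transcript length (bases, log axis) and log2 change between macrophage-depleted and control nodes in deposited CPM, with shapes for the roles; black bars are the medians of all tested genes in each length class. Most points lie above the bar of their class, and Psmd1 lies below its bar.

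In Cx3cr1 Cx43-/- nodes the proteasome genes stayed close to control. None of the 35 members was called, and 0 reached an unadjusted p under 0.05, in deposited CPM and on each of the 3 other scales, while limma called 0.00774% of all tested genes on each of the 4 scales. Over all tested genes, 191 had an unadjusted p under 0.05 in deposited CPM, 277 on the common total, 269 with median-of-ratios scaling and 319 with quantile normalization. In deposited CPM, log2 changes ran from -0.32 for Psma3 (limma adjusted p = 1) to 0.30 for Psmc3ip, with a median of -0.01 against 0.07 for all genes. Libraries did not overlap for 1 of the 34, Psmd2, the scaffold that receives ubiquitin shuttle proteins, named after its values were seen. It measured 97.9, 97.1 and 97.2 CPM in control and 100.9, 100.4 and 100.5 in Cx3cr1 Cx43-/- nodes. Its knockout libraries lay just above control, at a log2 difference of 0.05 (limma adjusted p = 1). Of all tested genes 5.94% lay wholly above control and 3% wholly below.

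Against the Cx3cr1 Cx43-/- nodes, the depleted nodes gave a like picture, with the same depleted libraries in both comparisons. Psmd1 was the only one of 35 members called, at a log2 difference of -0.79 (SE 0.22, limma adjusted p = 0.00628), where 43.4% of tested genes were called, 2.69% as higher and 40.7% as lower. The members' median was -0.03 (range -0.79 to 0.36) against -0.58 for all genes. On the common total 14 members were higher and 1 lower (8.47% and 20.9% of all genes), and with median-of-ratios scaling 22 were higher and 0 lower (13.3% and 12.6%). Quantile normalization gave 18 higher and 1 lower (12.1% and 13.8%). Without library 9 the numbers were 18 and 1 on the common total (8.92% and 23.4%), and 27 and 0 with median-of-ratios scaling (14.8% and 14.9%). Psmb1 and Psmb4 changed by 0.28 (limma adjusted p = 0.268) and 0.36 (adjusted p = 0.200) in deposited CPM. For Psmd1 alone did the libraries of the groups not overlap, where 3.39% of tested genes lay wholly above and 50.6% wholly below.

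Other genes of the pathway were compared between depleted and control nodes by the same test, in which 3.23% of all genes were higher and 33% lower in deposited CPM, 8.79% and 19.6% on the common total, and 13.3% and 12.8% with median-of-ratios scaling. Of 4 tested other subunits or partners of the cap 0 were called in deposited CPM; with median-of-ratios scaling Shfm1, a small lid subunit, and Uchl5, a deubiquitinase, were higher. Of 5 core assembly chaperones 0 were called, and 1, Psmg2, was higher with median-of-ratios scaling. Among 5 activators and inhibitors 0 were higher and 1 lower in deposited CPM, 1 and 1 on the common total, and 2 and 1 with median-of-ratios scaling. Psmf1, an inhibitor of the core, fell from 16.4 ± 3.30 to 7.73 ± 3.36 CPM (SD, n = 3; log2 change -1.10, limma adjusted p = 0.00371), and it was lower on the median-of-ratios scale too (-0.63, adjusted p = 0.0496). Psme1, a subunit of the interferon-inducible activator, was at 51.1 ± 5.32 and 37.0 ± 7.68 CPM (limma adjusted p = 0.0782). Its partner Psme2, named after its values were seen, had a log2 change of 0.32 (limma adjusted p = 0.342) in deposited CPM and was higher both on the common total (0.64, adjusted p = 0.0161) and under median-of-ratios scaling (0.80, adjusted p = 0.00540). Psme3, a nuclear activator named likewise, was higher with median-of-ratios scaling (0.40, adjusted p = 0.0394). The ratio of Psme1 to Psme2 was 3.78 to 5.04 in control, 3.58 to 4.35 in Cx3cr1 Cx43-/- and 2.24 to 3.06 in depleted libraries, which did not overlap the others.

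The immunoproteasome genes replace the catalytic beta subunits in immune and interferon-exposed cells. Psmb9, which replaces Psmb6, fell from 8.91 ± 1.77 to 5.09 ± 1.21 CPM (log2 change -0.76, limma adjusted p = 0.0358), a call lost both on the common total, where the adjusted p was 0.211, and under median-of-ratios scaling, where it was 0.419. Within libraries, Psmb9 over Psmb6 was 0.0910 to 0.149 in control, 0.0892 to 0.142 in Cx3cr1 Cx43-/- and 0.0403 to 0.0740 in depleted nodes. Psmb10 over Psmb7, the gene it replaces, was 0.403 to 0.424 in control, 0.377 to 0.474 in Cx3cr1 Cx43-/- and 0.281 to 0.343 in depleted nodes. Both ratios were lowest in the 3 depleted libraries. Psmb8 over Psmb5, the remaining catalytic gene, did not follow them. The levels of Psmb5 and Psmb7 are uncertain, with 57.1% and 28.1% of their stretches shared with other genes, which limits a comparison of these ratios. It was 0.817, 0.730 and 0.665 in control libraries 1 to 3 and 0.587, 0.980 and 1.13 in depleted libraries 7 to 9. Library 7 thus lay below the control range and libraries 8 and 9 above it. Means were 0.737 ± 0.0766 in control, 0.842 ± 0.145 in Cx3cr1 Cx43-/- and 0.898 ± 0.279 in depleted nodes (SD). Psmb10 was at 35.9 ± 5.30 and 30.5 ± 5.55 CPM (limma adjusted p = 0.408). Psmb8 was at 14.1 ± 1.22 in control and 17.1 ± 2.53 CPM in depleted nodes (limma adjusted p = 0.360) and was higher with median-of-ratios scaling (0.75, adjusted p = 0.0143). Of the 3 immunoproteasome genes 1 was also higher on the common total and 1 with quantile normalization, against 8.79% and 12.2% of all genes. The highest log2 changes of the 3 genes on these scales were 0.60 and 0.73.

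Of 8 genes of the Nfe2l1 pathway, 1 rose and 1 fell in deposited CPM, 3 were higher and 1 lower on the common total, and under median-of-ratios scaling 4 were higher and 0 lower. Nfe2l1 itself measured 284, 263 and 248 CPM in control, 253, 292 and 277 in Cx3cr1 Cx43-/- and 199, 162 and 111 in depleted nodes. All depleted libraries were below all others, and the log2 change was -0.79 (SE 0.22, limma adjusted p = 0.00774), or -0.29 (adjusted p = 0.0684) with median-of-ratios scaling. Maff, a small Maf protein that can pair with Nfe2l1, rose from 5.16 ± 0.675 to 32.5 ± 18.3 CPM (log2 change 2.41, limma adjusted p = 5.78e-06). Mafk, a related partner, was at 27.0 ± 1.91 and 42.9 ± 21.1 CPM (limma adjusted p = 0.0900); median-of-ratios scaling put it higher by 1.05 (adjusted p = 0.000614). Nfe2l2, the related oxidative stress factor, and the small Maf gene Mafg, both named after their values were seen, were higher with median-of-ratios scaling (0.55, limma adjusted p = 0.00416, and 0.51, adjusted p = 0.0378), with log2 changes of 0.06 and 0.02 in deposited CPM. Of 6 ubiquitin and E1 enzyme genes 0 were called in deposited CPM and 2 were higher with median-of-ratios scaling. Of 7 shuttle and adaptor genes 2 were lower in deposited CPM, and under median-of-ratios scaling 1 was lower and 1 higher. Zfand2a, an arsenite- and heat-inducible partner of the proteasome, fell from 17.9 ± 4.10 to 7.28 ± 1.36 CPM (log2 change -1.24, limma adjusted p = 0.000635). Ubqln4, a ubiquitin shuttle, fell from 46.8 ± 2.43 to 32.4 ± 6.08 CPM (log2 change -0.54, limma adjusted p = 0.0432), a call lost with median-of-ratios scaling (-0.05, adjusted p = 0.795). Of 7 muscle ubiquitin ligase genes 2 fell in deposited CPM, a share near that of all genes: Asb2, from 295 ± 33.6 to 96.1 ± 11.6 CPM (log2 change -1.61, limma adjusted p = 3.08e-06), and Trim63, a sarcomere-associated ligase, from 109 ± 3.22 to 63.1 ± 15.7 CPM (log2 change -0.82, limma adjusted p = 0.00438). On the common total 2 of the 7 ligase genes were lower, against 19.6% of all genes. Asb2 was also lower with median-of-ratios scaling (-1.12, limma adjusted p = 1.46e-05), and the call of Trim63 was lost there (-0.32, adjusted p = 0.0573). Fbxo30, named after its values were seen, was higher on that scale (0.55, limma adjusted p = 0.0219) and had a log2 change of 0.06 in deposited CPM.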

How the data were processed

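RNA of 9 microdissected AV node libraries was read as CPM values that the authors deposited, rounded to 2 decimals, for 34198 gene symbols. Per the labels' protocols, total RNA was DNase-treated and made into directional libraries. The submitters' processing notes name HTSeq 0.6.0, STAR 2.3.0, mm9 and edgeR without their roles; the annotation was not given in the sources used here. The columns sum to 28.3% to 48.7% of the CPM denominator. Columns were matched to samples by name, 0 pairs of libraries were identical, and 0 columns were left unused.

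The analysis used log2(CPM + 0.5) in limma 3.58.1 (R 4.3.3), in 1 model of 9 libraries, with trended empirical Bayes and 3 two-sided contrasts; log2 changes are on this scale, which understates the change of low genes. Genes entered at 1 CPM or more in at least 3 libraries (12925 genes), and p-values were adjusted over all of them by Benjamini-Hochberg, with a call under 0.05. The script was tested on simulated data. Alternatives were 2 other pseudocounts, 2 other filters, 3 scalings, fits of only the groups compared, a robust variance and each library left out; 2 combinations without library 9 were added after seeing the data. The members and gene lists were chosen with earlier results of these data known. Values in all libraries were given for the catalytic subunits and, in each role group, the 2 members with the smallest and the 1 with the largest p after macrophage depletion, and up to 3 genes of each other list by smallest p were eligible for naming, plus Nfe2l1 and the immunoproteasome genes. Ratios, and Psmd2, Psmd4, Psmd12 and any gene outside this rule by value, were added after their values were seen. Transcript lengths and the members' 50-base stretches came from GENCODE M21 protein-coding transcripts. The stretches were searched in the GENCODE M21 transcripts of all other genes, not only protein-coding ones. Promoter windows came from RefSeq GRCm38.p6. Since the files use mm9, these sources served only for gene properties.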

Additional observations from a re-analysis of the deposited data

How the results depend on the processing

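No paired analysis was possible because the sources used here give no pairing of libraries between the groups. Between depleted and control nodes, 1 of 35 members was called in deposited CPM; the number was 11 on the common total, 18 with median-of-ratios scaling, 12 with quantile normalization, and, without library 9, 12 on the common total and 23 with median-of-ratios scaling. For the core particle (0 called) these numbers were, in the same order, 7, 9, 8, 6 and 9, and for the regulatory particle (1 called) 4, 9, 4, 6 and 14. Leaving out single libraries in deposited CPM gave 0 to 4 members, 0 to 2 of the core and 0 to 3 of the regulatory particle. Between depleted and Cx3cr1 Cx43-/- nodes (1 called) the numbers were 15, 22, 19, 19 and 27, for the core (0 called) 8, 11, 10, 8 and 13, and for the regulatory particle (1 called) 7, 11, 9, 11 and 14. Leaving out single libraries gave 1 to 8 members, 0 to 5 and 1 to 3. Shares of all tested genes are given above only for depleted against control nodes without library 7, library 9 or control library 1. They moved widely, with 20.8% called without control library 1 and 45.9% called as lower without library 7. The counts with single libraries left out are therefore descriptions and no result about the members. With all libraries 36.2% of tested genes were called in deposited CPM against control, and 43.4% against Cx3cr1 Cx43-/- nodes. Between Cx3cr1 Cx43-/- and control nodes limma called 0 members under every alternative run, and 0 had an unadjusted p under 0.05 in deposited CPM or on the 3 other scales.

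Some members with a log2 change below 0 in deposited CPM were called as higher elsewhere. Between depleted and control nodes, with all libraries and median-of-ratios scaling, these were Psmb2 (0.43), Psmc1 (0.39), Psmc3 (0.45), Psmd7 (0.47), Psmd8 (0.37) and Psmd14 (0.48), none of them among the members named by rule. Between depleted and Cx3cr1 Cx43-/- nodes they were Psmb2 (0.41), Psmc1 (0.54), Psmc3 (0.54) and Psmd8 (0.44), and Psmc1 also on the common total (0.36) and with quantile normalization (0.37). The following are members named by rule. Between depleted and control nodes and without library 9, Psmc2 was at 0.35 on the common total and 0.53 with median-of-ratios scaling, Psmc4 at 0.48 and 0.66, and Psmc6 at 0.44 with median-of-ratios scaling. Between depleted and Cx3cr1 Cx43-/- nodes, Psmb5 was at 0.56 with median-of-ratios scaling, 0.51 with quantile normalization and 0.56 with median-of-ratios scaling without library 9. Psmc2 was at 0.47 with median-of-ratios scaling and, without library 9, at 0.42 on the common total and 0.62 with median-of-ratios scaling. Without library 9, Psmc4 was at 0.45 on the common total and 0.65 with median-of-ratios scaling, and with the latter Psma7 was at 0.52 and Psmc6 at 0.52. None of these members was called in deposited CPM with all libraries. The cause of these reversals was not tested. A scaling multiplies all genes of a library by the same factor, up or down, except quantile normalization. With all libraries the median of all tested genes moved from -0.49 in deposited CPM to -0.18 on the common total, between depleted and control nodes. It was -0.03 with median-of-ratios scaling. Of 1020 values of the 17 members named by rule over all alternatives and contrasts, 933 kept their side of the threshold (121 of them with another sign, uncalled both times), 66 were called only under the alternative, 6 lost their call and 15 were reversed.

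Each group has 3 libraries, library 9 differs from libraries 7 and 8, and CPM gives no independent total, so a rise in proteasome transcripts cannot be told apart from a fall of the other listed genes. Levels of the 7 members with many shared stretches, and of the 8 whose exons overlap another gene, Psmd1 included, also depend on counting rules that are not given in the sources used here.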
